A study of Mus musculus with 4 samples.

Results

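The let-7 family guide strands are the mature miRNAs cut from the 5′ arm of the let-7 hairpins. They were chosen by name, as the 5p strands of let-7a, b, c, d, e, f, g, i and miR-98, and made up 9 of the 1907 mature mouse miRNAs listed. Reads of 8 members were found in all 4 libraries, and those of let-7b in 3. The same 8 members had at least 10 reads in at least 2 libraries and entered the tests, whereas let-7b did not and is given by its values alone.

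Small RNA-seq compared miRNA levels of E14Tg2A cells, a mouse ES cell line of 129/Ola origin grown without feeder cells on gelatin, as ES cells and after aggregation. ES serum cells (day 0) were kept in 10% fetal calf serum with leukemia inhibitory factor (LIF). ES 2iL cells (day 0) were moved to a serum-free medium with LIF, 1 µM of the MEK inhibitor PD0325901 and 3 µM of the GSK3 inhibitor CHIR99021, a model of ground-state pluripotency. The ELA serum and ELA 2iL libraries came from epiblast-like aggregates (ELA) at day 2, formed from the respective ES cells and floated in a minimal medium without serum, LIF or inhibitors. Their medium names therefore state the past of the cells. Each group was 1 library of RNA pooled from 3 sets of experiments, so no value has a replicate error, and intervals cover counting error only. A level is in reads per 1000000 miRNA reads (RPM), a share of the library that does not measure the amount per cell. As the cultures were profiled in bulk, a change in the number of cells that hold a miRNA and a change in its amount per cell cannot be told apart.

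A miRNA recognizes its targets mainly through the seed, bases 2 to 8 from its 5′ end, and let-7 is known for repressing growth and developmental genes such as Hmga2, Myc and Lin28a. Mature let-7 accumulates as cells differentiate. In pluripotent cells the RNA-binding proteins LIN28A and LIN28B hold back the maturation of let-7 precursors, binding among other places a GGAG motif in the loop. The miR-290 and miR-302 families of ES cells and early epiblast are known to act against let-7.

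The mature sequences show what the members share and how little separates them, which bears on how their reads could be told apart. They are given 5′ to 3′ as RefSeq lists them for the GRCm38.p6 assembly, with the seed in capitals.
mmu-let-7a-5p: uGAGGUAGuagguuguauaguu
mmu-let-7b-5p: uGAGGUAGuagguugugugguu
mmu-let-7c-5p: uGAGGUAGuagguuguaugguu
mmu-let-7d-5p: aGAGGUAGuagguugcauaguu
mmu-let-7e-5p: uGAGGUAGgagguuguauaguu
mmu-let-7f-5p: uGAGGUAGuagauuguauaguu
mmu-let-7g-5p: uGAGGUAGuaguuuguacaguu
mmu-let-7i-5p: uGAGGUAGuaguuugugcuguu
mmu-miR-98-5p: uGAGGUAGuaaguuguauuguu
All 9 were 22 bases long and carried the seed GAGGUAG. Among the 1623 listed miRNAs with a RefSeq sequence, the seed was found in 11, the other 2 being let-7k and miR-1961, which had 0 reads in every library. Written against let-7a, with positions counted from 1 at the 5′ end, let-7c differed by A19G, let-7e by U9G and let-7f by G12A. The changes were A17G and A19G in let-7b, U1A and U16C in let-7d, G12U and U18C in let-7g, and G11A and A19U in miR-98. let-7i was the most distant from let-7a, with G12U, A17G, U18C and A19U. Of the 36 pairs of members, 4 differed by 1 base (a and c, a and e, a and f, b and c), and the largest difference was 6 bases. The mismatches that Bowtie was allowed are not given in the sources used here, so the division of reads within these pairs is uncertain.

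The 9 guides arise from 12 hairpins, because let-7a, let-7c and let-7f each have 2. The loop letters nearest the 3p arm are shown because they differ between members at the known LIN28 motif. The last 12 bases of the loop are given for 4 of the hairpins, with GGAG in capitals where it was present.
let-7a-1: acugGGAGauaa
let-7b: cuccgaagauaa
let-7c-2: gcucugcgguaa
miR-98: guaagaagauaa
The letters GGAG, searched on the RNA strand only, were in this window in 9 of the 12 hairpins and missing from those of let-7b, let-7c-2 and miR-98. Of 597 other mouse hairpins with both arms listed and a loop of at least 12 bases, 28 (4.69%) held them. The match is to letters and does not show that a protein was bound.

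The libraries held between 587363 reads (ELA 2iL) and 8056984 reads (ES serum), and 1 read was worth 0.124 RPM (serum) and 0.361 (2iL) in ES cells and 0.232 (serum) and 1.70 (2iL) in ELA, with the medium of the ES cells in parentheses. Groups were taken from the sample titles, which the column names, source names and days in culture match. A further label, the sample description, exchanges the ES 2iL and ELA serum libraries. miR-302a-3p, a miRNA of primed pluripotency, went from 1343 RPM in ES cells to 8176 in ELA within serum. Within 2iL it went from 14.8 to 999 RPM, so that it was higher in the ELA library of each medium under the titles. miR-302b-3p and miR-302d-3p had the same order, with 1384 and 2451 RPM in ES cells against 7744 and 16726 in ELA for serum, and 24.2 and 27.5 against 1524 and 2930 for 2iL. miR-295-3p, of the ES cell family miR-290, was lower in ELA under the titles, at 49948 RPM against 35327 for serum and 126073 against 96518 for 2iL. Under the descriptions all 3 miR-302 strands would be lower in ELA in both media, and miR-295-3p higher. That grouping was not used, and it would exchange the medium and stage contrasts below.

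let-7 guides were a small part of every library and were more abundant in both 2iL libraries than in either serum library. Their reads came to 2808 (serum) and 7239 (2iL) in ES cells and 1075 (serum) and 635 (2iL) in ELA. This was 0.0349% of miRNA reads for serum (Wilson 95% interval 0.0336 to 0.0362) and 0.262% for 2iL (0.256 to 0.268) in ES cells, and 0.0249% for serum (0.0235 to 0.0265) and 0.108% for 2iL (0.100 to 0.117) in ELA. ES 2iL stood highest and ELA serum lowest. With 2 libraries for each medium, an exact two-sided permutation test of the summed RPM gave p = 0.333, the smallest p this design allows. The test exchanged libraries across stages and could not have given a smaller p, so it decides nothing about the medium.

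mmu-let-7f-5p was the most abundant member except in ELA serum, where let-7i exceeded it, at 92.5 RPM (serum) and 1107 (2iL) in ES cells and 57.8 (serum) and 347 (2iL) in ELA. mmu-let-7g-5p followed it in ES 2iL, at 677 RPM, and measured 69.4 in ES serum against 37.1 (serum) and 269 (2iL) in ELA. mmu-let-7a-5p was at 38.7 RPM (serum) and 392 (2iL) in ES cells and 26.0 (serum) and 119 (2iL) in ELA. These members shared an order of libraries, with ES 2iL first, ELA 2iL next, then ES serum and ELA serum. let-7e and let-7d kept the same order at lower levels. mmu-let-7e-5p measured 11.8 RPM (serum) and 102 (2iL) in ES cells and 5.57 (serum) and 25.5 (2iL) in ELA, the last from 15 reads. mmu-let-7d-5p was at 9.31 RPM (serum) and 56.7 (2iL) in ES cells and 6.50 (serum) and 37.5 (2iL) in ELA.

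let-7i and miR-98 were separated by medium but hardly by stage. mmu-let-7i-5p was at 67.3 RPM in ES cells and 73.6 in ELA from serum, against 207 and 187 from 2iL. mmu-miR-98-5p was at 19.5 RPM in ES cells and 22.7 in ELA from serum, against 52.4 and 61.3 from 2iL. mmu-let-7c-5p alone did not follow the medium, at 38.8 RPM (serum) and 19.2 (2iL) in ES cells and 20.2 (serum) and 32.3 (2iL) in ELA (19 reads). Its ES serum level was the highest of the 4 but overlapped that of ELA 2iL in counting error, and its ES 2iL level, the lowest, overlapped that of ELA serum. mmu-let-7b-5p was close to the limit of detection, with 10 reads (1.24 RPM) for serum and 8 (2.89 RPM) for 2iL in ES cells, and 0 for serum and 1 (1.70 RPM) for 2iL in ELA. The exact Poisson 95% interval of the 0 reads in ELA serum reaches 0.856 RPM. Where a 0 is set at 3 reads below, the value in this library is 0.696 RPM.

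**Figure D1:**
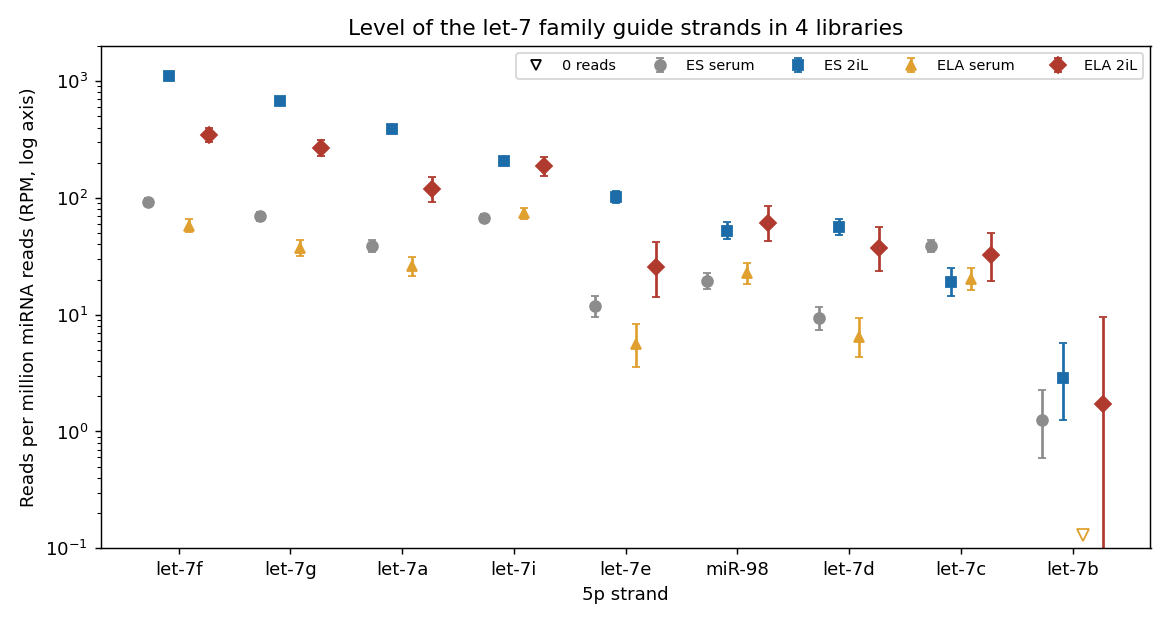
Level of each let-7 family guide strand (x axis) in RPM on a log axis (y axis), 1 point per library with its exact Poisson 95% interval, which covers counting error only. The open triangle is let-7b in ELA serum with 0 reads, drawn without an interval; both 2iL points lie above both serum points for every member except let-7c.

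The order of the members depended on the library. In ES serum let-7f led, while let-7g and let-7i had overlapping intervals, as did let-7c and let-7a. In ES 2iL the order was f, g, a, i, e, d, miR-98, c, b, and only the intervals of let-7d and miR-98, among neighbours, overlapped. In ELA serum let-7i was first, ahead of let-7f with intervals apart. In ELA 2iL let-7f and let-7g overlapped at the top and let-7i came after them.

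2iL against serum was the larger of the comparisons for this family. In ES cells, summed family levels were 7.51-fold higher in 2iL (exact 95% interval 7.19 to 7.84), and in ELA they were 4.33-fold higher (3.92 to 4.78). The 2 ratios come from separate libraries and their intervals do not overlap, but no replicate error stands behind the difference. A difference of at least 1 on the log2(RPM + 1) scale was met upward in 2iL by 7 of the 9 members in ES cells and downward by 0, where 30.7% of the 599 miRNAs tested were higher and 18.7% lower. By counting error alone, the interval of the ratio lay above 1 for 7 members and below 1 for 1 in ES cells, where it did so for 50.9% and 29.2% of the miRNAs tested, and above 1 for 7 and below 1 for 0 in ELA, against 36.7% and 15.9%. For ELA the count was 8 higher and 0 lower, where 23.9% of all tested were higher and 14.7% lower, but 1 of the 8 is let-7b, with 1 read against 0 and not among those tested. Both 2iL libraries exceeded both serum libraries for 8 of the 9 members, a pattern met in 30.7% of the miRNAs tested. Of the 8, let-7b was not tested and rests on 1 read in ELA 2iL.

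The size of the difference was uneven across members. In ES cells the ratio of 2iL to serum was 11.97 for let-7f (11.0 to 13.0), 10.1 for let-7a (8.93 to 11.5) and 9.75 for let-7g (8.87 to 10.7). It was 8.67 for let-7e (6.85 to 11.1) and 6.10 for let-7d (4.60 to 8.14). let-7i and miR-98 had lower ratios, of 3.07 (2.73 to 3.46) and 2.69 (2.13 to 3.39), and their intervals lay below those of these 5 members. let-7c was lower in 2iL, with a ratio of 0.493 (0.361 to 0.661). The ratio of let-7b was 2.33, with an interval of 0.799 to 6.56 that holds 1. The 3 members with the lowest ratios in ES cells, let-7c, let-7b and miR-98, were those with a hairpin lacking the GGAG letters shown above. let-7c also has a second hairpin that holds them, let-7i holds them with a ratio close to that of miR-98, and the relation was noticed in these data and not tested. The place of let-7b rests on 8 and 10 reads, and its interval spans the ratios of let-7i and let-7d. In ELA the ratio of let-7i was below that of miR-98 and let-7b had none.

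In ELA, the ratio of 2iL to serum was 7.24 for let-7g (5.78 to 9.08), 6.01 for let-7f (4.97 to 7.26), 5.76 for let-7d (3.14 to 10.4) and 4.59 for let-7a (3.35 to 6.24). Counting error was wide for let-7e, with a ratio of 4.59 and an interval of 2.24 to 9.11. miR-98 had a ratio of 2.70 (1.79 to 3.99), almost the one it had in ES cells, and let-7i one of 2.55 (2.03 to 3.17). The ratios of let-7f and let-7a were lower in ELA than in ES cells, with intervals apart, whereas those of let-7g, let-7e, let-7d, let-7i and miR-98 overlapped. For let-7c the ratio was 1.60 (0.921 to 2.65), above 1 in ELA and below 1 in ES cells. let-7b had 0 reads and 1 read in ELA, too few for a ratio.

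**Figure D2:**
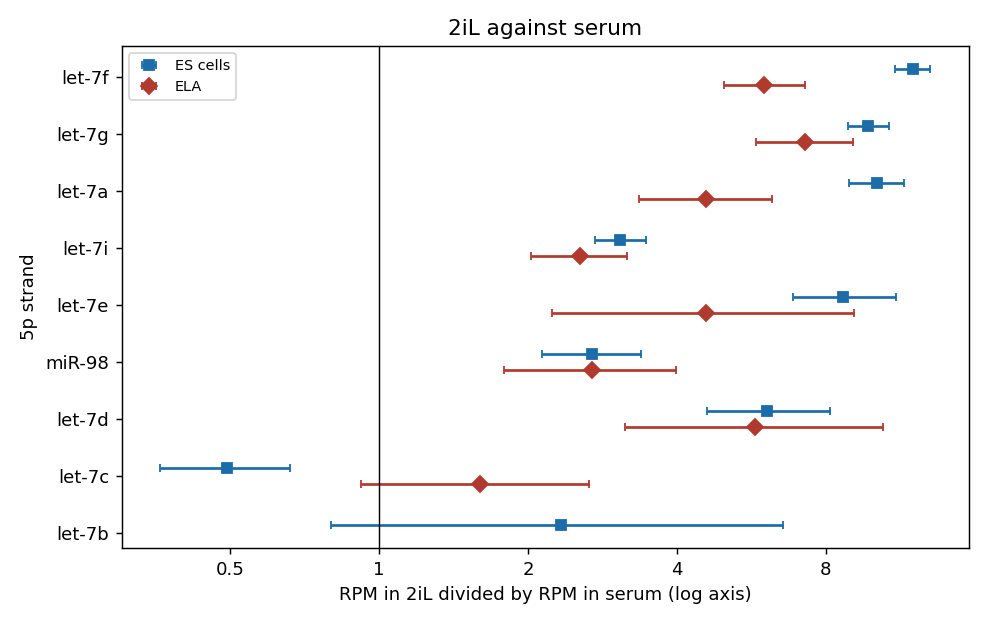
Ratio of the level in 2iL to that in serum for each member (log x axis) in ES cells (squares) and in ELA (diamonds), with exact 95% intervals for counting error; the vertical line marks no difference. let-7f, let-7g and let-7a lie near 10 in ES cells, let-7i and miR-98 near 3 at both stages, and let-7c on opposite sides of 1; let-7b has no ratio in ELA.

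A model of stage and medium was fitted over the 4 libraries to ask whether the medium difference exceeded the scatter left between stages. On the log2(RPM + 1) scale the medium contrast, 2iL minus serum averaged over both stages, was 3.07 for let-7f, 3.05 for let-7g, 2.73 for let-7a, 2.51 for let-7e and 2.42 for let-7d. It was 1.47 for let-7i, 1.39 for miR-98, 1.12 for the untested let-7b and -0.16 for let-7c. The median of the 9 was 2.42, against 0.32 over all miRNAs tested, and 8 were at least 1 higher and 0 lower, against 24.5% and 15.7% of those tested. The 8 include let-7b, which came to 0.73 with its 0 reads set at 3. Scaling moved the count of members at least 1 higher to 5 (TMM) and 6 (DESeq2 size factors), with 0 lower in both. It also moved the median of all tested to -0.16 and -0.10, and the share that was higher among all tested miRNAs that differed by at least 1 from 61.0% to 33.3% and 38.1%. A scaling shifts all miRNAs by about the same amount, so the members' median lay 2.10 to 2.11 above that of all tested under each, and 1.71 above it with a pseudocount of 5 RPM.

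With limma, 0 of the 8 members tested passed an adjusted p of 0.05, as did 0% of all 599. The adjusted p was 0.0899 for let-7g, 0.0910 for let-7a, let-7d and let-7f, 0.0947 for let-7e, 0.135 for let-7i, 0.138 for miR-98 and 0.851 for let-7c. At an unadjusted p under 0.05 there were 7 of the 8, and 176 of the 599 (29.4%). On the reads recovered from the RPM values, the quasi-likelihood test of edgeR called 5 members, let-7a, d, e, f and g, all of them upward in 2iL, where 10.7% of miRNAs were called, 3.67% higher and 7.01% lower. Its adjusted p was 0.00356 for let-7f and for let-7g, 0.0131 for let-7a, 0.0278 for let-7e and 0.0305 for let-7d. In edgeR let-7i had an adjusted p of 0.208, miR-98 of 0.274 and let-7c of 0.570. DESeq2 called the same 5 members, where 12.4% of miRNAs were called, 4.84% higher and 7.51% lower. With 1 residual degree of freedom per miRNA, these fits take the 2 stages as replicates of the medium.

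The make-up of the family, which does not depend on how libraries are scaled, differed between media and between stages. let-7a, f and g together, grouped after their values were seen, took 57.5% of family reads for serum (55.7 to 59.4) and 83.2% for 2iL (82.3 to 84.0) in ES cells, and 48.5% for serum (45.5 to 51.5) and 68.0% for 2iL (64.3 to 71.5) in ELA. let-7i had its smaller shares in 2iL. It took 19.3% (serum) and 7.90% (2iL) of family reads in ES cells, and 29.5% (serum) and 17.3% (2iL) in ELA. let-7c took 11.1% in ES serum and 8.09% in ELA serum, against 0.732% (0.560 to 0.956) for ES cells and 2.99% (1.92 to 4.63) for ELA from 2iL. miR-98 took 5.59% in serum and 2.00% in 2iL for ES cells, and 9.12% and 5.67% for ELA. The share of let-7d lay between 2.17% and 3.46%, with intervals that overlapped in all 4 libraries.

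Because some members differ by 1 base, the shares were also taken with a, b, c, e and f, which are linked by such pairs, as 1 unit. Some pairs inside it differ by more, such as c and f by 2 bases and b and f by 3. let-7g, kept apart, differs from let-7a by 2. This unit held 52.5% (serum) and 62.1% (2iL) of family reads in ES cells, and 43.9% (serum) and 48.7% (2iL) in ELA. Taken member by member, 26.2% of the family's reads would have to change member to turn the make-up of ES serum into that of ES 2iL, and 15.5% with the unit. In ELA the media differed in this way by 20.7%, and by 15.6% with the unit. Between ES cells and ELA it was 13.7% in serum, with or without the unit, and 16.7% in 2iL, or 14.4% with the unit, which is close to the values between media once the unit is used. Part of the difference in make-up between media therefore lay within the unit, where let-7c had smaller and let-7f larger shares in 2iL. Beyond that, the unit and let-7g had larger shares in 2iL at both stages, and let-7i and miR-98 smaller ones. In ELA the intervals of the unit and of miR-98 overlapped between media.

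**Figure D3:**
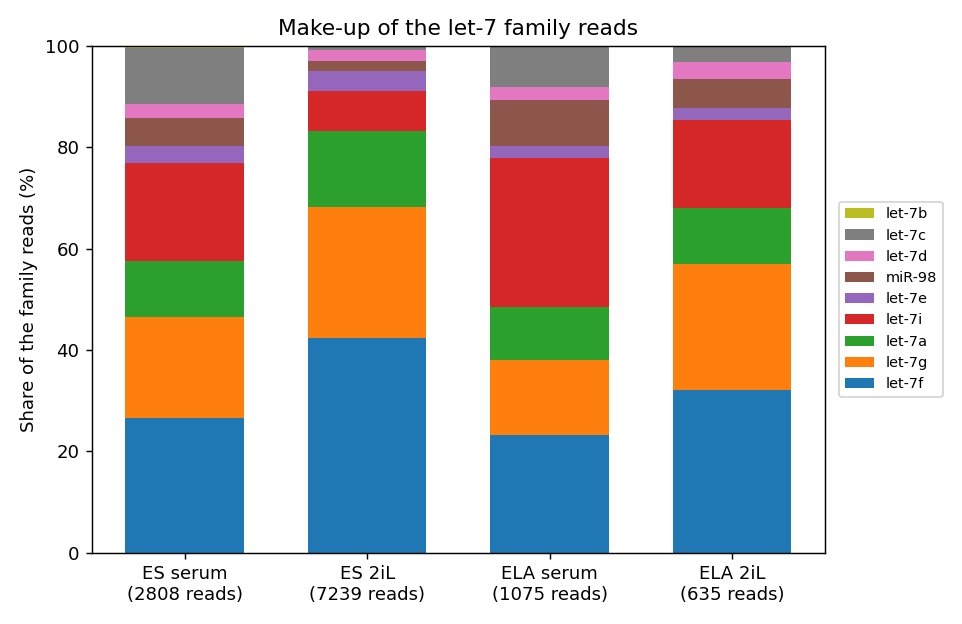
Share of the family reads taken by each guide strand (y axis, percent) in the 4 libraries, with the family reads of each library below its bar. let-7f takes 42.3% in ES 2iL, and the shares of let-7i, let-7c and miR-98 are larger in serum than in 2iL at both stages.

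Against ES cells, ELA held less of the family in both media. Summed levels in ELA were 0.716 times those of ES cells in serum (0.667 to 0.768) and 0.413 times in 2iL (0.380 to 0.448). Both ratios use the ES and ELA libraries of the media comparison, and ES 2iL in particular enters the medium difference in ES cells and the stage difference in 2iL. In serum, a log2(RPM + 1) difference of at least 1 was met upward by 0 members and downward by 1, the low-count let-7b, where 9.18% of all tested were higher and 17.2% lower. With the 0 reads of let-7b in ELA serum set at 3 its difference was -0.40, which leaves 0 members lower. In 2iL 0 were higher and 4 were lower, let-7a, e, f and g, where 19.0% were higher and 29.9% lower. The interval of the ratio lay above 1 for 0 members in either medium, below 1 for 5 in serum and for 4 in 2iL, against 33.1% above and 37.7% below in serum and 25.9% and 35.1% in 2iL.

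let-7e had the lowest ratio of ELA to ES cells among the tested members in each medium, 0.472 in serum (0.289 to 0.745) and 0.250 in 2iL (0.138 to 0.419). For let-7a the ratio was 0.671 in serum (0.536 to 0.835) and 0.304 in 2iL (0.235 to 0.387). let-7f had 0.625 in serum (0.539 to 0.722) and 0.314 in 2iL (0.271 to 0.362). The intervals of let-7a and let-7f in the 2 media lay apart, those of let-7e overlapped. let-7g had 0.535 in serum (0.446 to 0.639) and 0.398 in 2iL (0.336 to 0.468). let-7d had 0.698 in serum (0.435 to 1.09) and 0.660 in 2iL (0.402 to 1.04), with 1 inside both intervals.

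For a further pair of members a stage difference was not detectable at this depth. The ratio of ELA to ES cells was 1.09 in serum (0.949 to 1.26) and 0.906 in 2iL (0.732 to 1.11) for let-7i, and for miR-98 it was 1.17 in serum (0.897 to 1.51) and 1.17 in 2iL (0.788 to 1.69). let-7c was at 0.520 in serum (0.405 to 0.661) and 1.69 in 2iL (0.944 to 2.90), on opposite sides of 1. Stage changes of opposite sign in the media were met in 28.7% of the miRNAs tested. let-7b had 0 reads in ELA serum, and 3 reads there would be 0.561 times its measured ES level, a value without an interval. In 2iL the ratio of let-7b was 0.589, with an interval of 0.0133 to 4.39.

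**Figure D4:**
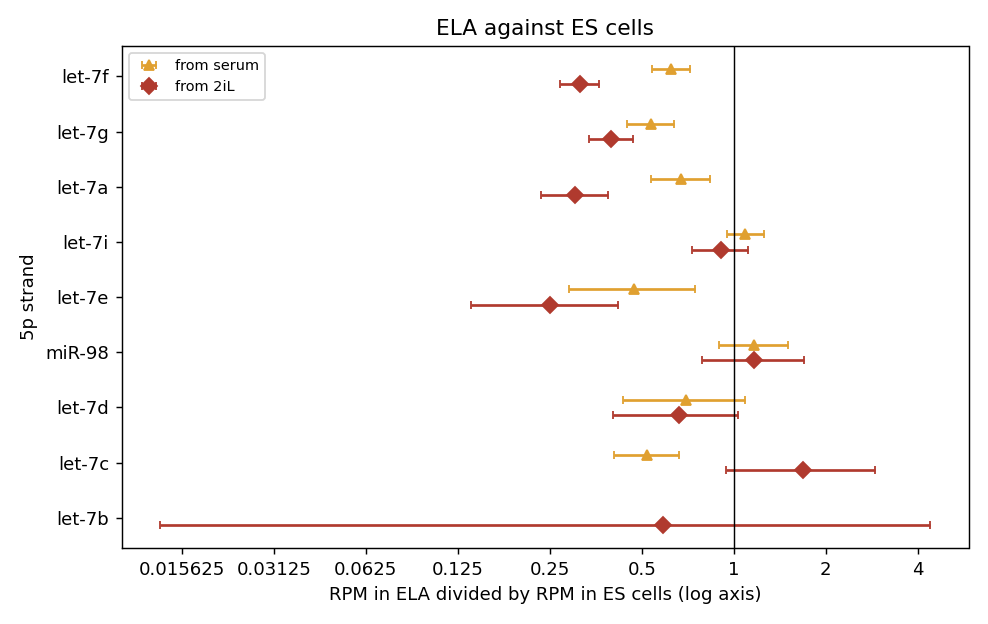
Ratio of the level in ELA to that in ES cells for each member (log x axis) for cells from serum (triangles) and from 2iL (diamonds), with exact 95% intervals for counting error. let-7a, let-7e, let-7f and let-7g lie below 1 in both media, let-7i and miR-98 at 1, and let-7b in serum is left out because it had 0 reads in ELA.

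The stage contrast, ELA minus ES averaged over both media on the log2(RPM + 1) scale, was -1.46 for let-7e, -1.17 for let-7f, -1.13 for let-7a and -1.11 for let-7g. It was -0.85 for let-7b, -0.52 for let-7d, -0.09 for let-7c, -0.01 for let-7i and 0.22 for miR-98. The signs of let-7c and let-7i are not settled, since let-7c came to 0.053 under DESeq2 size factors and let-7i to 0.088 under TMM. The median of the 9 was -0.85, the value of let-7b, and -0.52 with let-7b set at 3 reads in ELA serum, against -0.22 over all miRNAs tested. At least 1 lower were 4 of the 9, and at least 1 higher 0, against 21.7% and 11.9% of those tested. Under DESeq2 size factors the 4 became 2, let-7e and let-7f, and the share that was higher among all tested miRNAs that differed by at least 1 went from 35.3% to 46.2%. limma called 0 of 8 members, and 0% of all 599, with a smallest adjusted p among members of 0.202 for let-7e, and 1 member had an unadjusted p under 0.05, as did 20.9% of all tested. edgeR and DESeq2 also called 0 members, where 6.51% and 8.35% of all miRNAs were called.

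The genomic positions, read in NCBIM37 (mm9), show which hairpins lie close to each other. let-7d (chr13:48631381-48631483, minus strand), let-7f-1 (chr13:48633198-48633286, minus) and let-7a-1 (chr13:48633548-48633641, minus) form an intergenic cluster. let-7f-2 (chrX:148346889-148346971, plus) and miR-98 (chrX:148347757-148347864, plus) lie 785 bases apart in an intron of Huwe1, a ubiquitin ligase gene. let-7g (chr9:106081171-106081258, plus) is in an intron of Wdr82, a gene for a subunit of histone methyltransferase complexes. let-7i (chr10:122422696-122422780, minus) is intergenic. let-7c-2 (chr15:85537033-85537127, plus) and let-7b (chr15:85537749-85537833, plus) are 621 bases apart and intergenic. let-7c-1 (chr16:77599902-77599995, plus) follows miR-99a, inside an intron of Gm11146 on the opposite strand. let-7a-2 (chr9:41344799-41344894, plus) lies between miR-100 and miR-125b-1 in an intron of the lincRNA D230004N17Rik. let-7e (chr17:17967316-17967408, plus) is 367 bases before miR-125a, which overlaps an exon of Ncrna00085.

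Members of 1 locus can be compared by their ratios. miR-98 was 2.69-fold higher in 2iL among ES cells, whereas let-7f, which can also come from the chromosome 13 cluster, was 11.97-fold higher. The 3p strands separate the 2 let-7f hairpins. let-7f-2-3p, from the Huwe1 intron, had 10 reads in ES serum and 37 in ES 2iL, a ratio of 10.8 (5.25 to 24.3), against 4.16 (2.65 to 6.60) for miR-98-3p from the same intron. The intervals of the 2 strands overlap in part, and the difference between these hairpins was not tested. The 3p strand of let-7f-1 had 2 reads (serum) and 4 (2iL) in ES cells and 1 (serum) and 0 (2iL) in ELA.

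The neighbours of let-7 in its clusters, miR-99a, miR-99b, miR-100, miR-125a and miR-125b, are long-known companions with different seeds. Of these 5, 1 was higher and 1 lower by at least 1 in the medium contrast, against 24.5% and 15.7% of all tested, and 0 were higher and 1 lower in the stage contrast, against 11.9% and 21.7%. Around let-7e the values went in different directions. miR-125a-5p was at 900 RPM (serum) and 2056 (2iL) in ES cells and 328 (serum) and 1292 (2iL) in ELA, with higher values in 2iL at both stages, but it was not called by limma, edgeR or DESeq2 (adjusted p = 0.135, 0.142 and 0.134). miR-99b-5p, known as a member of the same cluster, was at 34737 RPM (ES) and 21828 RPM (ELA) for serum but at 4557 and 3146 RPM for 2iL, called lower in 2iL by edgeR (adjusted p = 0.00125) though not by limma (0.0899). miR-100-5p, upstream of let-7a-2, was at 20.4 RPM (serum) and 13.0 (2iL) in ES cells and 11.6 (serum) and 10.2 (2iL) in ELA. let-7a rose in edgeR and miR-100-5p did not pass, with an adjusted p of 0.398. let-7a-5p can also come from let-7a-1 in the chromosome 13 cluster. As let-7a-2-3p had only 1 read, in ES 2iL, the rise cannot be assigned to this locus.

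The passenger strands, cut from the 3′ arm and usually discarded, give a further reading of the same hairpins. Their summed level was 26.7 RPM (serum) and 158 (2iL) in ES cells and 28.5 (serum) and 86.8 (2iL) in ELA. This made them 5.93-fold higher in 2iL in ES cells (5.03 to 7.02) and 3.04-fold higher in ELA (2.15 to 4.25). Of 12 passenger strands, 5 were at least 1 higher in the medium contrast and 0 lower, against 24.5% and 15.7% of the miRNAs tested. One of the 5, the untested let-7e-3p, stood just above 1 with 0 reads in ELA 2iL, where let-7g-3p, at 0.89, also had 0. With 3 reads there, worth 5.11 RPM in this shallowest library, they would be at 2.31 and 2.20. Such reads were not observed and raise the 2iL side, whereas let-7g-3p had 6 reads in ELA serum. The count would then be 6 of the 8 strands that had more than 4 reads in any library, and 9 of all 12. No share over all miRNAs tested was taken under this rule. In the stage contrast 0 were higher and 3 lower, against 11.9% and 21.7%. Among these 3, the contrasts of let-7g-3p and let-7e-3p would be -0.83 and -0.79 with 3 reads in ELA 2iL, which leaves 1, let-7f-2-3p. The limma, edgeR and DESeq2 tests called 0 of the 6 that could be tested in either contrast. In limma 4 had an unadjusted p under 0.05 for the medium and 1 for stage, against 29.4% and 20.9% of all tested. Under DESeq2 size factors limma called 2 of the 6 for the medium and 1 for stage, where it called 112 and 84 of all 599. With the 5 most abundant miRNAs left out of the totals it called 4 and 1, against 109 and 89 of 599, and with no filter 4 and 2 of 11, against 130 and 99 of 1202. For stage, 1 of 6 is close to the share over all tested. In serum, the summed passenger level of ELA was 1.07 times that of ES cells (0.850 to 1.34), while the summed guides were at 0.716. In 2iL the passengers were at 0.549 (0.402 to 0.734) and the guides at 0.413, with overlapping intervals. Much of this rests on let-7d-3p, which held 61.3 of the 86.8 RPM in ELA 2iL and 70.5 of the 158 RPM in ES 2iL. Without it, a choice made after seeing the data, the other 11 passenger strands were at 0.291 in 2iL (0.160 to 0.489) and at 0.835 in serum (0.577 to 1.19). Their 2iL to serum ratios were then 6.87 in ES cells (5.43 to 8.74) and 2.39 in ELA (1.24 to 4.36), the latter on 15 reads in ELA 2iL.

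let-7d was the exception in arm use. Its 3p strand had 112 reads (serum) and 195 (2iL) in ES cells, against 75 and 157 of the 5p strand, and 77 (serum) and 36 (2iL) in ELA, against 28 and 22. The 5p share was 40.1% for serum (33.3 to 47.3) and 44.6% for 2iL (39.5 to 49.8) in ES cells, and 26.7% for serum (19.1 to 35.8) and 37.9% for 2iL (26.6 to 50.8) in ELA. let-7d is also the member whose guide starts with A instead of U, the change U1A above. miR-98 came next, with a 5p share of 74.4% to 88.3%, and let-7a, let-7c and let-7e did not go below 84.1%. In let-7f, let-7g and let-7i the 5p strand made up at least 96.4% of reads in every library.

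**Figure D5:**
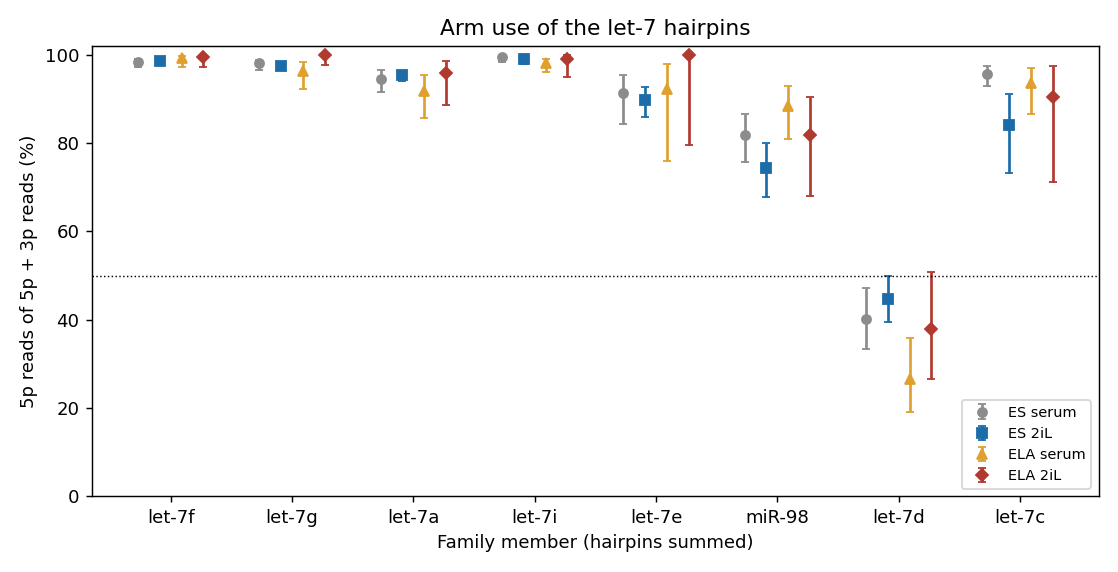
Share of 5p reads among the 5p and 3p reads of each family member (y axis, percent), hairpins of 1 member summed, in the 4 libraries with Wilson 95% intervals; the dotted line marks equal use of the arms. let-7d lies below the line in all 4 libraries and every other member above it; let-7b is left out for low counts.

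Some 3p strands cannot be assigned to a hairpin. let-7a-1-3p and let-7c-2-3p have the same sequence, but were listed with 18 and 14 reads (serum) and 52 and 10 (2iL) in ES cells, and 10 and 6 (serum) and 3 and 2 (2iL) in ELA. The 2 listings of 1 sequence thus went apart in ES 2iL, and how reads that fit both places were counted is not given in the sources used here. let-7a-2-3p had 1 read, in ES 2iL, and let-7c-1-3p had 0 in every library.

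The guide strands of miR-291a, miR-294, miR-295 and miR-302a to d, the families set against let-7 in ES cells, outnumbered it throughout. Their summed level was 192 (serum) and 54.4 (2iL) times that of the let-7 guides in ES cells, and 300.03 (serum) and 106.6 (2iL) times in ELA. The ratio was lowest in ES 2iL and highest in ELA serum. The summed level of these 7 strands was itself higher in 2iL, 2.12-fold in ES cells (2.12 to 2.13) and 1.54-fold in ELA (1.53 to 1.55). Of the 7, 1 was higher and 4 lower by at least 1 in the medium contrast, where 24.5% and 15.7% of all tested were. The 4 were the miR-302 strands, while the contrast was 0.84 for miR-291a-3p, 0.83 for miR-294-3p and 1.39 for miR-295-3p. In the stage contrast 4, again the miR-302 strands, were higher and 0 lower, where 11.9% and 21.7% of all tested were. Of the other names linked to the family, let-7j and let-7k had 0 reads, and miR-202-3p had 4 reads in ES serum and 0 elsewhere.

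To find miRNAs with the family's pattern, the 4 values of each abundant miRNA were centred on the log2(RPM + 1) scale and compared with the mean of the centred members. Among 297 candidates the nearest was miR-351-5p, at a distance of 0.126, with 965 RPM (serum) and 3792 (2iL) in ES cells and 620 (serum) and 2070 (2iL) in ELA. miR-702-3p (0.193), miR-93-3p (0.264), miR-331-3p (0.307) and miR-30b-5p (0.349) followed. The members themselves lay between 0.495 (let-7d) and 2.38 (let-7c) from their mean. Likeness over 4 libraries is a description of these libraries only.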

How the data were processed

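Small RNA-seq libraries (TruSeq, from total RNA, 1 per group) were sequenced on a MiSeq. Per the study's methods, the authors trimmed adaptors with Trimmomatic, aligned reads to mm9 with Bowtie, counted those on miRBase release 20 miRNAs by featureCounts, and deposited the values as RPM, each column summing to 1000000. CASAVA 1.8 did the demultiplexing. The handling of mismatches and reads with several positions is not given in the sources used here. All values were whole multiples of 1 read (100% within 0.01 of a whole number in each library), which gave back the reads.

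The members and lists were chosen with earlier results of these data known. All 9 members are named, and the other lists are given by counts. Differences were taken on log2(RPM + 1), a pseudocount of 1 RPM that understates changes of low miRNAs. limma 3.58.1 (R 4.3.3) took the 4 libraries together, with terms for stage and medium, on 599 miRNAs that reached 10 reads in 2 or more libraries, two-sided, with a threshold of 0.05 on the p adjusted by Benjamini-Hochberg. edgeR 4.0.16 and DESeq2 1.42.0 on the recovered reads were alternatives, as were pseudocounts of 0.5 and 5 RPM, and TMM and DESeq2 scaling. Further ones were totals without the 5 most abundant miRNAs, no filter, members linked by 1-base differences summed, and each library left out. The limma, edgeR and DESeq2 steps were tested on simulated data. Ratios of 2 libraries carry exact (Clopper-Pearson) and shares Wilson 95% intervals. Likeness was the Euclidean distance of centred values, among non-member miRNAs whose mean log2(RPM + 1) reached 5. Hairpin positions came from matching RefSeq hairpins to NCBIM37. A listed hairpin for miR-99b was not located and is not placed here.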

Additional observations from a re-analysis of the deposited data

Results flagged for a closer look

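The differences of let-7c had opposite signs in the 2 media and at the 2 stages, though both upward values, which rest on 19 reads in ELA 2iL, lay within counting error. On the log2(RPM + 1) scale, ELA minus ES came to -0.91 for serum and to 0.73 for 2iL, and these differ by 1.64. 2iL minus serum was -0.98 in ES cells and 0.65 in ELA, which gives the same difference of 1.64, since both are made from the same 4 values. let-7i also had stage changes of opposite sign, 0.13 for serum and -0.14 for 2iL, with a difference of -0.27. Among the cluster neighbours, miR-99a-5p had -0.64 for serum and 0.40 for 2iL, which differ by 1.04, from at most 19 reads. miR-125b-5p had a stage change of -2.33 in serum and 0.57 in 2iL and a medium change of -0.98 in ES cells and 1.92 in ELA, a difference of 2.90 in each case. None of these differences was tested, as each group had 1 library.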

How the results depend on the processing

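No further pairing, by replicate, was possible because each group had 1 library and the labels give no shared replicate numbers. With medium as a term, the stage contrast already compares ES cells and ELA within each medium. The limma count of members past the threshold for the medium, 0 where 0% of all tested were called, became 5 with a pseudocount of 5 RPM (6.34% of all tested called), 3 under TMM (9.18%), 5 under DESeq2 size factors (18.7%), 5 when the 5 most abundant miRNAs were left out of the totals (18.2%), 5 with no filter (10.8%), 5 with edgeR (10.7%) and 5 with DESeq2 (12.4%). With a pseudocount of 0.5 RPM it was 0, as for all tested. For stage it was 0 under each of these, where the number called of all tested was, in the same order, 9, 28, 84 and 89 of 599, 99 of 1202 with no filter, then 39, 50 and 0 of 599. The median medium contrast of the 9 members, 2.42, was 1.95 under TMM and 2.01 to 2.49 without 1 library. The stage median of -0.85 was -0.43 with a pseudocount of 5 RPM, -1.11 with 0.5 RPM and -0.67 to -0.59 without 1 library. With groups from the description field, an alternative chosen after seeing the data, they were -0.85 and 2.42, but miR-302a-3p, miR-302b-3p and miR-302d-3p would then be lower in ELA in both media. The summed family ratio of 2iL to serum in ES cells, 7.51, was 5.04 under TMM, 5.67 under DESeq2 size factors and 6.19 with the 5 most abundant miRNAs left out of the totals. In ELA, 4.33 became 3.20 under TMM and 3.10 under DESeq2 size factors. The ratio of ELA to ES cells was 0.820 in serum under DESeq2 size factors, and in 2iL 0.463 under TMM and 0.491 with the 5 most abundant miRNAs left out of the totals. With members linked by 1-base differences summed, the differing make-up between media was 15.5% in place of 26.2% in ES cells and 15.6% in place of 20.7% in ELA. The median 5p share in ES 2iL was then 97.0% in place of 89.8%. The stage contrast of let-7c was 0.053 under DESeq2 size factors, and that of let-7i 0.088 under TMM, 0.15 under DESeq2 size factors and 0.080 with the 5 most abundant miRNAs left out of the totals. Without 1 library, the medium contrast of let-7c ran from -0.98 to 0.65, its stage contrast from -0.91 to 0.73 and the stage contrast of let-7i from -0.14 to 0.13. The cause was not tested in any of these cases.

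Depth limits let-7b at every comparison, and let-7c and let-7e in ELA 2iL, where 19 and 15 reads were found. Leaving out 1 library leaves no residual degree of freedom, so those values have no test.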
